A study of Mus musculus with 6 samples.

Results

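The 200 most abundant long non-coding RNA genes of mouse liver are described here in FXR-null mice with and without hepatic XBP1. They were taken from the 54232 genes of the deposited count files. All 8327 genes that GENCODE M21 types as lincRNA, antisense or processed_transcript, outside the X and Y chromosomes, were ranked by counts-per-million values (CPM, counts over the library total) averaged over the 6 libraries, and the 200 highest were kept. The genes were thus chosen by their measured level in both genotypes. Of these, 88 are lincRNA genes, which lie between coding genes, 58 are antisense genes, and 54 are processed transcripts without an assigned open reading frame.

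Livers called DKO in the labels (Fxr-/-Xbp1LKO) lacked FXR and hepatic XBP1, and those called SKO (Fxr-/-Xbp1fl/fl), against which they were compared, lacked FXR and kept floxed Xbp1. The mice were chow-fed C57BL/6 males, 8 to 10 weeks old, with 3 libraries per genotype, and the absence of FXR is shared by both groups. The Cre driver is not given in the labels. Titles of 4 libraries, all 3 DKO and 1 SKO, carry a pair of numbers whose meaning is not given, and the labels do not say that each library is a separate animal. P-values therefore measure the spread between these libraries, which may be technical. FXR, the product of Nr1h4, is a nuclear receptor for bile acids, and XBP1 is a factor that drives secretory pathway genes when unfolded proteins build up.

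Long non-coding RNAs are transcribed, capped and often spliced like mRNAs but are annotated as not coding for protein. Annotations can differ on single genes, as given below. Some build nuclear bodies, as Neat1 does for paraspeckles, some are processed into small nucleolar RNAs (snoRNAs) or microRNAs, and many antisense RNAs are transcribed from or across the promoter of a coding gene. In liver, an antisense RNA accompanies Hnf4a, the gene of a hepatocyte transcription factor.

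Sequences of 4 promoters are shown first, each from 250 bases before to 50 bases after the RefSeq start nearest to the GENCODE start (build GRCm38.p6). BC049987 and AI506816 had the largest called fall and the largest called rise, and 9030622O22Rik and 1810008I18Rik were called lower and hold a motif that was searched. Capitals mark motif matches: TGACGTGG, the unfolded protein response element (UPRE), in 9030622O22Rik on the opposite strand, and TTGCATCA, an element bound by ATF4 and C/EBP factors (CARE), on the opposite strand and CACGTG, the E-box, in 1810008I18Rik. Windows lie at chr9:44672211-44672510 (minus strand), chr5:23712618-23712917 (minus), chr2:148040299-148040598 (minus) and chr7:65802787-65803086 (plus), in the order below.
BC049987: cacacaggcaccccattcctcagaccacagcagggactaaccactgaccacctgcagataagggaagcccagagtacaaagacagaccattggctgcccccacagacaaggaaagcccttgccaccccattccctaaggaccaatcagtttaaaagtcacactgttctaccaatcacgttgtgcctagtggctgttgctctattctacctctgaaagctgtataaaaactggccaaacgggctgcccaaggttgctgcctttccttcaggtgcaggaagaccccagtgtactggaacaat
AI506816: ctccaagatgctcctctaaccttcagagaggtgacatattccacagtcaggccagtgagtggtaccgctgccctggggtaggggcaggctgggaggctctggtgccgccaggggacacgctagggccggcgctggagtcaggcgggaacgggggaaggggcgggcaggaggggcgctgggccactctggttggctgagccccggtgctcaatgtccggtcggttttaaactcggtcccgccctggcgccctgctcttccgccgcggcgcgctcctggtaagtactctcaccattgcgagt
9030622O22Rik: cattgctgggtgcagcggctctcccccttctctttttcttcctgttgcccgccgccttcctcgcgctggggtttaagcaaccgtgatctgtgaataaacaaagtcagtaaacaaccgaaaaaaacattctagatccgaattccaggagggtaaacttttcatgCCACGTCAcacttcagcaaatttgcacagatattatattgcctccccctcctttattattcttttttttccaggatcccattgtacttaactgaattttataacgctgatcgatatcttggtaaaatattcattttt
1810008I18Rik: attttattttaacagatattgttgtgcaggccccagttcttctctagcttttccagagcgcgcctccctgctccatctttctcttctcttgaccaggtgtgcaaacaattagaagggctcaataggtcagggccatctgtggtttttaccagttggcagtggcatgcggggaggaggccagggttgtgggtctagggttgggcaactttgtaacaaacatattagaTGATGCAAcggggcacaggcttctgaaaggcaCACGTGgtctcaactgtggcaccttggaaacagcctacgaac

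RefSeq had a promoter window for 133 of the 200 genes, 25 of them called lower and 6 called higher in DKO. On either strand, the UPRE was found in the windows of 3 of the 133 (2.26%), against 0.714% of 27025 genes with a window. One of these, 9030622O22Rik, was called lower; RefSeq gives it 26 starts, so it had more windows in which to match than most genes. Gm32063 and 4933421O10Rik were not called. The CARE was found in 1 of the 133, against 1.03% of all genes, and the E-box in 15 of the 133 (11.3%), against 8.09%. The endoplasmic reticulum stress element (ERSE, CCAAT and CCACG with 9 bases between them) was found in 0 of the 133, against 0.137% of all genes, and its second form (ATTGG and CCACG with 1 base between them) in 1, against 0.0444%. The windows of BC049987 and AI506816 held none of these letters. The CCACG end of the ERSE can lie over an E-box. A match describes letters only.

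The levels that chose the genes are a description. The mean over all libraries ran from 328 CPM for BC024386 down to 3.33 CPM, with a median of 7.42 CPM. The last 2 genes inside the limit, Pvt1 and Gm15611, had 3.36 and 3.33 CPM, and the first 2 outside it, 3110056K07Rik and Gm28370, had 3.31 CPM each. Because both genotypes entered the mean, 6 genes are included although their mean in DKO alone was under the last gene's level, and 20 although their mean in SKO alone was, Meg3 and Rian among them. Of the 6, 3 were called (Gm34667, Gm32511 and 1700018L02Rik, all lower in DKO), and of the 20, 4 were called (AI506816, Pvt1, 4933431E20Rik and Gm13657, all higher in DKO). These calls are on genes that the choice let in through the genotype in which they are high. All 200 passed the filter on low counts. By symbol, 158 matched RefSeq, which types 146 as lncRNA, 3 as pseudogene types and 9 as protein-coding (Cct6a, 1810058I24Rik, Tmem134, Tmem250-ps, Ptpmt1, Ifi30, Gm46430, Zswim6 and Spata5l1), so the label does not hold for these 9 in that annotation.

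Total counts were 16966422 to 21107674 per library. Normalised CPM below are counts over the library total times its TMM factor, so that 3 counts, the upper limit behind a count of 0 as far as counting error goes, equal 0.126 to 0.191 normalised CPM. Xbp1 mRNA had 95.7, 67.0 and 68.2 normalised CPM in DKO, against 225, 260.3 and 254 in SKO. Nr1h4 had 93.7, 97.7 and 100.4 normalised CPM in DKO and 98.0, 92.8 and 105 in SKO. It did not pass the test (log2 fold change -0.02, edgeR adjusted p = 0.891). Reads of Nr1h4 were thus counted in every library, and no group with FXR is there for comparison. Marker genes of other cells moved with genotype, and their part in the results below was not tested. Of 10 stellate cell and myofibroblast markers 7 were called higher, with a summed level of 638 to 939 normalised CPM in DKO and 366 to 430.3 in SKO. Of 10 Kupffer cell and monocyte markers 5 were higher (669.9 to 1035 in DKO and 502 to 636 in SKO), with all 10 under an unadjusted p of 0.05 and 9 called by DESeq2. Also higher were 4 of 7 cholangiocyte markers (122 to 201 in DKO and 61.2 to 74.2 in SKO) and 4 of 7 markers of dividing cells (24.3 to 40.2 in DKO and 13 to 15.4 in SKO). Of 10 endothelial and 10 lymphocyte markers 0 were called by edgeR, with 2 of each under an unadjusted p of 0.05, and DESeq2 called 0 and 1 of them and limma-voom 0 and 0. In contrast, 5 of 9 hepatocyte markers were lower (57076 to 68399 in DKO and 87099 to 115097 in SKO). No marker was at 0 in every library, and DKO replicate 1 had the highest sum of the non-hepatocyte lists other than the endothelial one. In bulk liver, fewer cells of a type and less RNA per cell cannot be told apart.

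Among the 200 genes, falls outnumbered rises. With edgeR's quasi-likelihood test and Benjamini-Hochberg adjustment over 13986 genes, 40 of the 200 were lower in DKO and 7 (3.50%) were higher. The same call was made for 9.70% of all genes tested in the lower direction and for 10.3% in the higher one. Among the 200, 3 of the lower and 4 of the higher genes are included only through the genotype in which they are high. The counts of calls are therefore partly set by the choice of genes. The median log2 fold change was -0.14 for the 200, against 0.01 for all genes tested, and 127 of the 200 values were negative. Leaving out a library moved the lower calls to 30 without DKO replicate 1, 25 without DKO replicate 3, 24 without SKO replicate 2 and 24 without SKO replicate 3, and the higher calls to 11 without DKO replicate 2 and 8 without DKO replicate 1. Long non-coding RNA genes of the same 3 types ranked below the 200 gave 22 lower and 20 higher calls among 531 tested, with a median of -0.04. The split between directions depended on scaling. With library totals in place of TMM factors, the median of all genes tested was 0.23, that of the 200 was 0.08, and 20 of the 200 were lower and 25 higher. With upper-quartile factors 33 were lower and 11 higher. Relative to the median of all genes, the 200 stood at -0.14 under each of these 3 scalings. A change of scaling shifts all genes nearly alike, so this difference could hardly move and is no check on the falls. Groups did not overlap, with DKO below SKO, for 64 of the 200, against 19.4% of all genes tested, and with DKO above SKO for 20, against 20.2%. The choice of genes bears on these counts too.

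**Figure D1:**
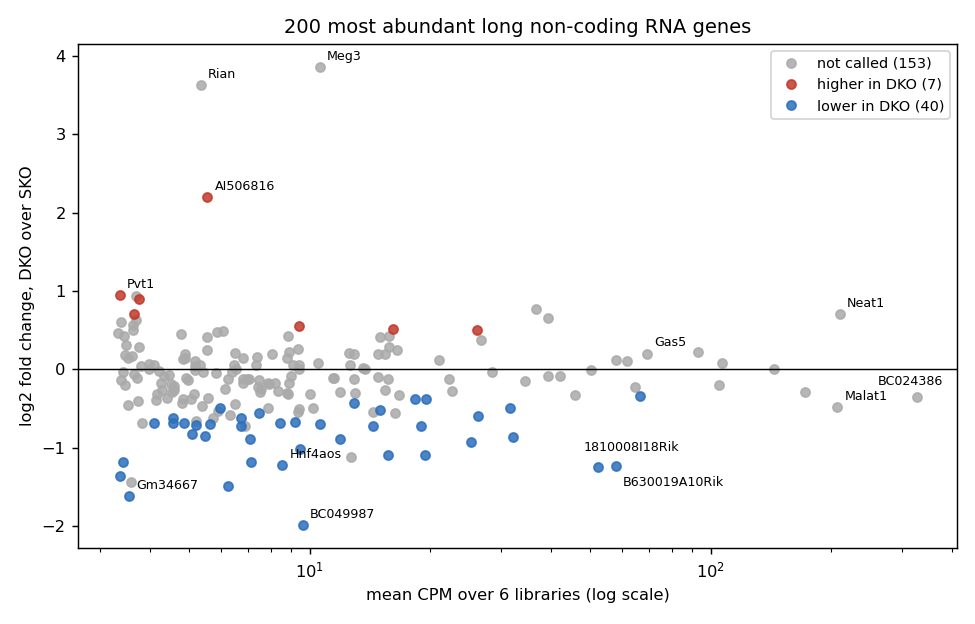
Log2 fold change of DKO over SKO (vertical axis) against mean CPM over 6 libraries (horizontal axis, log scale) for the 200 genes, with 40 lower calls in blue, 7 higher calls in red and 153 uncalled genes in grey. Most called genes lie below 0, and Meg3 and Rian have the highest fold changes without passing the test. Both are among the 200 only through their level in DKO.

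The lower calls stood mostly in the antisense and lincRNA types. Of the 58 antisense genes 19 were lower and 1 was higher, with a median log2 fold change of -0.32. Of the 88 lincRNA genes 18 were lower and 1 was higher, with a median of -0.18. Of the 54 processed transcripts 3 were lower and 5 higher, with a median of 0.02. Lower calls were 32.8% of antisense, 20.5% of lincRNA and 5.56% of processed transcript genes, against 9.70% of all genes tested. Higher calls were 1.72%, 1.14% and 9.26% in that order, against 10.3%. The summed level of the antisense genes was 611, 712 and 699 normalised CPM in DKO, against 859, 866 and 939 in SKO, with no overlap between the groups. The lincRNA sum was 1584, 1501 and 1601 normalised CPM in DKO, against 1587, 1566 and 1832 in SKO, and here the groups overlapped. The difference between types was not tested. All 200 together held 0.381%, 0.361% and 0.375% of the counts in DKO libraries, against 0.345%, 0.330% and 0.391% in SKO libraries, a difference of 0.0164 percentage points (two-sided exact permutation test, p = 0.5, where 0.1 is the smallest p that 3 against 3 allows). Leaving out a library moved this difference to 0.00384 percentage points without SKO replicate 2, 0.0343 without SKO replicate 3 and 0.0112 to 0.0221 without any other. The summed normalised CPM was 3374, 3402 and 3569 in DKO and 3720, 3661 and 4116 in SKO (two-sided exact permutation test, p = 0.1, the smallest possible), so the direction of the total turned with the scaling.

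Of the 10 most abundant genes edgeR called 1 lower, Gm37494, a share near the 9.70% of all genes called lower. DESeq2 also called BC024386, Malat1 and 0610005C13Rik lower. The share of all genes that DESeq2 called was not worked out, so these calls are not read as a result about the 10 genes. BC024386 (ENSMUSG00000109628, chr7:140906014-140907983, plus strand), a gene of 6 exons, had 257, 299 and 311 normalised CPM in DKO, against 349, 334 and 426 in SKO. All DKO libraries were below all SKO libraries, but the difference did not pass the test (log2 fold change -0.36 ± 0.11 SE, edgeR adjusted p = 0.054, DESeq2 adjusted p = 0.0161). 0610005C13Rik, an antisense RNA known from mouse liver, had 142, 165 and 159 normalised CPM in DKO and 172, 191 and 206 in SKO (log2 fold change -0.29, edgeR adjusted p = 0.0528, DESeq2 adjusted p = 0.0301). The 10 highest genes together held 41.4% to 42.9% of the counts of the 200 in DKO and 38.8% to 42.1% in SKO. Per kilobase of exon the order was different. BC024386 came first with 172 normalised CPM per kilobase in DKO and 220.2 in SKO, followed by AW112010 with 136 in DKO and 129 in SKO, a transcript induced in activated macrophages. Malat1 was the eighth with 25.0 in DKO and 34.9 in SKO. Gm37494 had 54.8, 57.4 and 65.7 normalised CPM in DKO and 68.4, 82.3 and 73.7 in SKO (log2 fold change -0.34, edgeR adjusted p = 0.0302), and it lost the call without DKO replicate 1 or 2 or SKO replicate 2 or 3 (edgeR adjusted p = 0.0674 to 0.116).

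**Figure D2:**
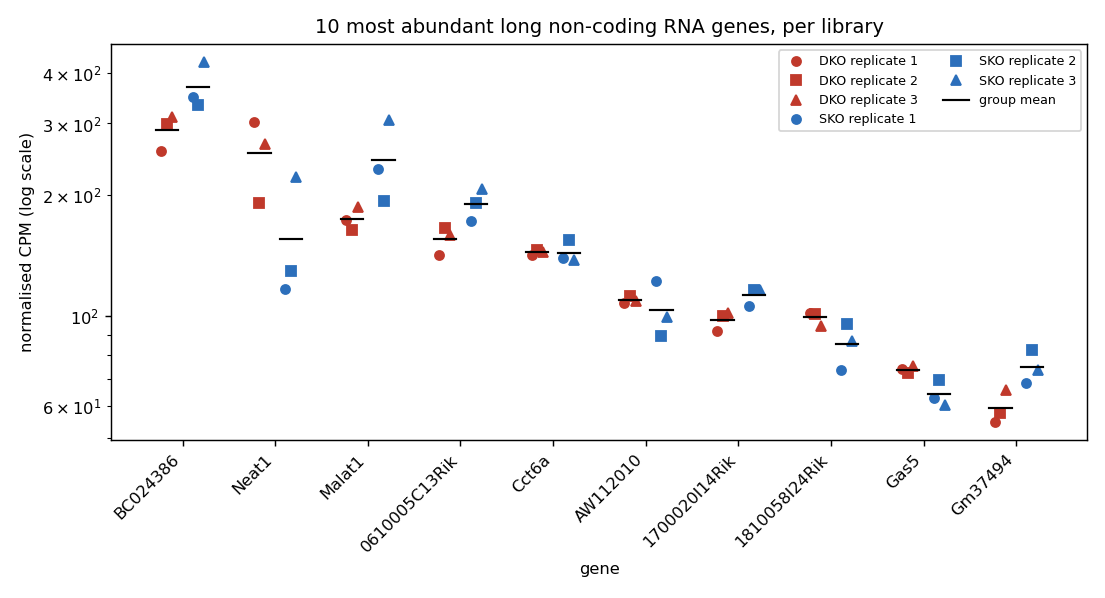
Normalised CPM (log scale) of the 10 most abundant genes, with DKO libraries in red left of SKO libraries in blue and lines at the group means. BC024386 lies at 257 to 311 in DKO and 334 to 426 in SKO and Neat1 at 191 to 303 in DKO and 117 to 221 in SKO.

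Neat1 and Malat1, neighbours on chromosome 19 with a gap of 22035 bases, had opposite signs. Neat1 (ENSMUSG00000092274), the scaffold RNA of paraspeckles, had 303, 191 and 267 normalised CPM in DKO, against 117, 129 and 221 in SKO. SKO replicate 3 lay above the lowest DKO library, and the gene did not pass the test (log2 fold change 0.70 ± 0.30 SE, edgeR adjusted p = 0.166); without SKO replicate 3 it did (1.04, edgeR adjusted p = 0.0143). Malat1 (ENSMUSG00000092341), an RNA of nuclear speckles, had 173, 163 and 186 normalised CPM in DKO, against 232, 193 and 306 in SKO, where every DKO library was below every SKO library (log2 fold change -0.48 ± 0.15 SE, edgeR adjusted p = 0.0573, DESeq2 adjusted p = 0.00719). The ratio of Neat1 to Malat1, a comparison chosen after the values were seen, was 1.75, 1.17 and 1.44 in DKO and 0.504, 0.668 and 0.722 in SKO, without overlap (two-sided exact permutation test, p = 0.1, the smallest possible). Of 12 genes for paraspeckle proteins 0 were called by edgeR, DESeq2 or limma-voom, 2 had an unadjusted p under 0.05, and their median log2 fold change was 0.00. Tug1, another nuclear RNA, had 37.5, 40.9 and 44.3 normalised CPM in DKO and 40.7, 44.0 and 45.1 in SKO and was not called.

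The largest fall was that of BC049987 (ENSMUSG00000110755), a lincRNA gene of 2 exons at chr9:44670453-44672238 on the minus strand. It had 4.41, 3.56 and 4.10 normalised CPM in DKO, against 13.5, 15 and 19.4 in SKO, so that the highest DKO library was far below the lowest SKO library. The level was 3.96-fold lower in DKO (log2 fold change -1.99 ± 0.16 SE, edgeR adjusted p = 6.12e-05). Its neighbour Treh, the gene of trehalase, starts 995 bases away on the opposite strand and was called higher, with 7.76, 4.59 and 4.87 normalised CPM in DKO and 3.43, 2.47 and 3.15 in SKO (log2 fold change 0.94, edgeR adjusted p = 0.0229).

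B630019A10Rik and 1810008I18Rik were the most abundant of the genes that fell more than 2-fold. B630019A10Rik (ENSMUSG00000068463, chr16:23175280-23224446, plus strand, 5 exons) had 35.2, 34.1 and 37.4 normalised CPM in DKO, against 84.9, 86.0 and 79.7 in SKO. It was 2.35-fold lower, with a narrow spread in both genotypes (log2 fold change -1.23 ± 0.07 SE, edgeR adjusted p = 1.11e-05). 1810008I18Rik (ENSMUSG00000100094, chr7:65803111-65806449, plus strand, 3 exons), whose promoter is printed above, had 29.9, 32.6 and 33.6 normalised CPM in DKO, against 71.0, 90.2 and 67.7 in SKO (log2 fold change -1.25, edgeR adjusted p = 0.000132). Neither has a coding gene that overlaps it or starts within 5 kb of its start. Gm34667, a lincRNA gene further along chromosome 12 than Meg3 and Rian, had 1.59, 1.71 and 2.13 normalised CPM in DKO and 4.89, 5.98 and 5.80 in SKO (log2 fold change -1.62, edgeR adjusted p = 0.000576).

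Of the 40 lower genes 12 were at least 2-fold lower, a call made for 1.27% of all genes tested, and the smallest fall was 1.26-fold. Of the 12, Gm34667, Gm32511 and 1700018L02Rik are among the 200 only through their level in SKO, so the count is not read against that share. Besides those above, they include Gm32511 (log2 fold change -1.36), Gm16551 (-1.18), Gm48633 (-1.10) and Gm30262 (-1.02). Gm16551 and 1700018L02Rik (-1.18) had wide SKO values, 6.23, 8.99 and 15.2 normalised CPM for Gm16551, against 4.78, 3.42 and 5.24 in DKO, and each kept its call in 1 of the 6 fits without a library. Calls held in every such fit for 20 of the 40 lower and 5 of the 7 higher genes. Gm13775 (-1.10) and Gm12909 (-0.62) lie among the genes of major urinary proteins, a family of near-identical copies, and their counts are uncertain for that reason.

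**Figure D3:**
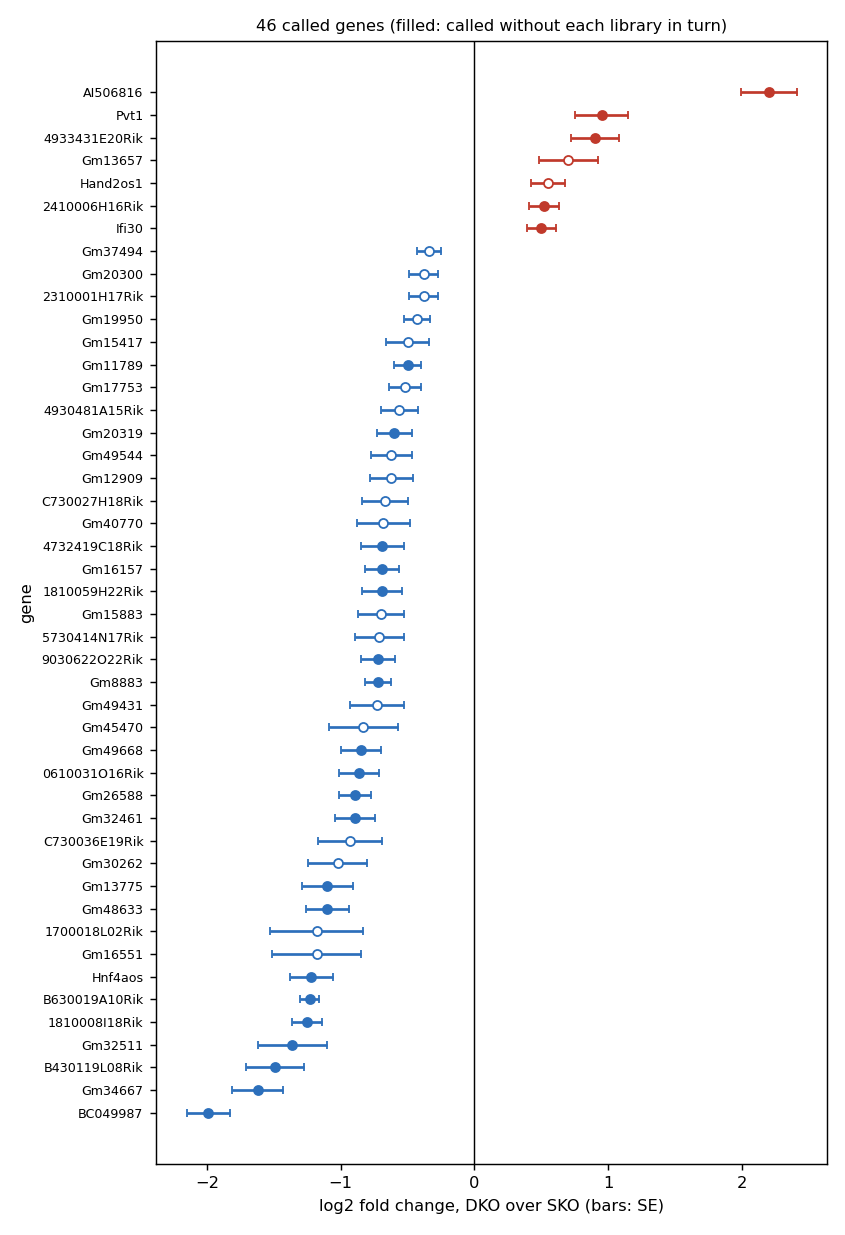
Log2 fold change of DKO over SKO with its SE (horizontal axis) for 46 of the 47 called genes, higher ones in red above lower ones in blue. Filled points mark the 5 higher and 20 lower genes that stayed called without each library in turn, and open points the others.

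The antisense RNA of Hnf4a was lower. Hnf4aos (ENSMUSG00000046840, chr2:163493807-163541720, minus strand), which overlaps Hnf4a on the opposite strand, had 5.08, 4.59 and 6.22 normalised CPM in DKO, against 10.7, 14.6 and 11.5 in SKO, and the groups were far apart (log2 fold change -1.22 ± 0.16 SE, edgeR adjusted p = 0.00105). Hnf4a itself, a master transcription factor of hepatocytes, had 717, 829 and 745 normalised CPM in DKO and 841, 656 and 634 in SKO, with overlap (log2 fold change 0.11, edgeR adjusted p = 0.599). Hnf4aos and Hnf4a share no exon base, and their ratio did not overlap between genotypes (two-sided exact permutation test, p = 0.1, the smallest possible). Hnf4aos also overlaps R3hdml on the opposite strand, with no shared exon base, which had 1.59, 0.781 and 0.726 normalised CPM in DKO, against 1.08, 3.29 and 2.03 in SKO and was not called (log2 fold change -1.03 ± 0.44 SE, edgeR adjusted p = 0.136).

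Other lower antisense genes overlap a coding gene that was not called. Gm32511 overlaps Aqp9, the gene of a hepatocyte glycerol channel, whose log2 fold change was -0.08, and Gm19950 (-0.43) overlaps Acsm1, a gene of a mitochondrial acyl-CoA synthetase, at 0.07. Gm26588 (-0.89) overlaps Mgll, which encodes monoacylglycerol lipase, at -0.30 (edgeR adjusted p = 0.0937). Gm11789 (-0.50) overlaps Gcgr, the glucagon receptor gene, at -0.20 (edgeR adjusted p = 0.131), with 275, 313 and 287 normalised CPM in DKO, all below the 347, 322 and 336 in SKO. The ratio of antisense to coding gene overlapped between genotypes for Gm26588 and Mgll (two-sided exact permutation test, p = 0.2). These 4 pairs were chosen after their values were seen.

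In other pairs both genes passed the test. B430119L08Rik had 2.94, 3.03 and 4.25 normalised CPM in DKO, against 7.24, 12.2 and 9.18 in SKO (log2 fold change -1.49), and Serpina1c, an alpha-1-antitrypsin gene that it overlaps, had 614, 977 and 967 in DKO and 1666, 1770 and 1721 in SKO (-1.01). 0610031O16Rik (-0.86) fell beside Adh7 (-0.82), an alcohol dehydrogenase gene, and Gm15883 (-0.70) beside Cyp2f2 (-0.93), a cytochrome P450 of periportal hepatocytes. Gm49668 (-0.85) fell beside Fam120b (-0.26), Gm16157 (-0.69) beside Fam169b (-0.46) and 1700018L02Rik (-1.18) beside Ak3 (-0.29), which encodes mitochondrial adenylate kinase. Gm20319 (-0.60) fell less than Il1rap (-1.11), the gene of the interleukin-1 receptor accessory protein. Gm12909 fell beside Mup3 (-1.78), which starts 946 bases away, and Gm17753 (-0.52) and Gm49544 (-0.62), with 673 bases between them, beside H1f0 (-0.38), a linker histone gene. Gm49544 also starts near Gcat (-0.42), a gene of threonine breakdown. The sources used here do not say whether counting used the strand, and without it reads of an RNA and its antisense partner cannot be told apart. How far this bears on pairs with and without shared exon bases was not tested.

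Of the 200 genes, 117 have a coding gene that overlaps them or starts within 5 kb, and 133 such pairs had both genes tested. Both genes were called in 13 pairs, in the same direction in 12, with BC049987 and Treh as the exception. Across the 84 pairs that overlap on opposite strands Pearson's r of the fold changes was 0.46 and Spearman's rho 0.40, and 62 had the same sign. Within these, r was 0.49 for 65 pairs that share exon bases and 0.41 for 19 that share none. Both genes were called in 9 of the 65 and in 0 of the 19, where 15 and 5 had a called long non-coding RNA gene. Whether the 9 pairs share reads was not tested, as strand use in counting is not stated. Across the 39 pairs with starts within 5 kb on opposite strands and no overlap r was 0.11 and rho 0.32. These are descriptions across pairs, some of which share a gene, and all pairs share the same 6 libraries. Among the 200, 67 genes share exon bases with a coding gene (13 lower, 2 higher) and 133 share none (27 lower, 5 higher).

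**Figure D4:**
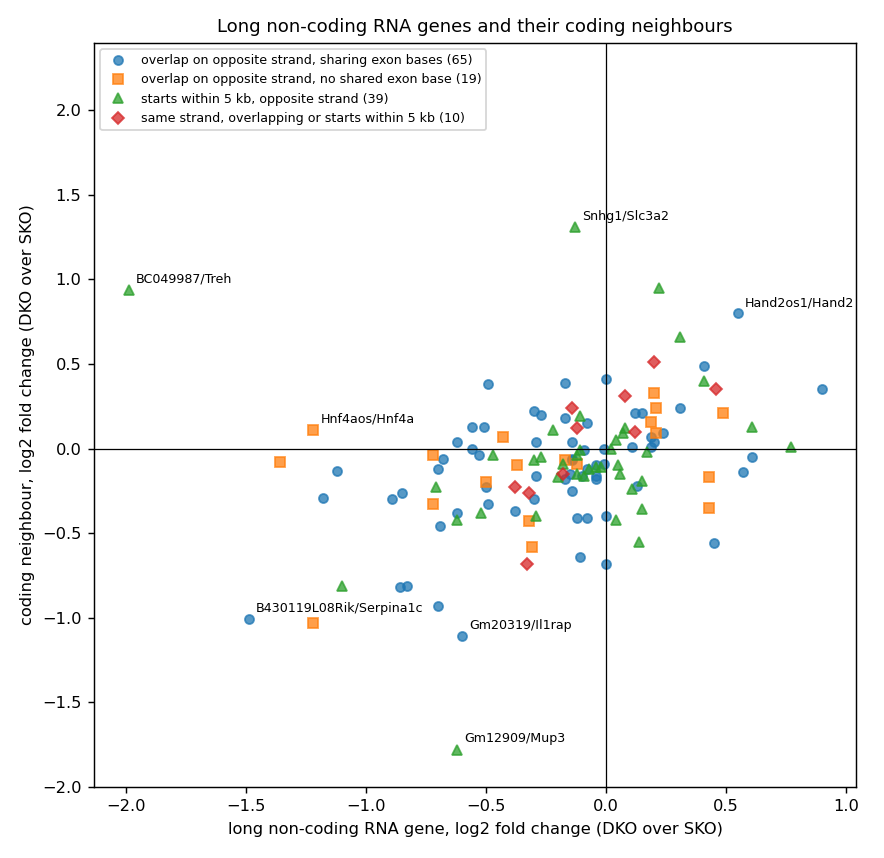
Log2 fold change (DKO over SKO) of coding neighbours (vertical axis) against that of the long non-coding RNA genes (horizontal axis), 1 point per pair, with symbols for the relation of the pair. Hnf4aos lies at -1.22 with Hnf4a at 0.11, BC049987 at -1.99 with Treh at 0.94, and Snhg1 at -0.13 with Slc3a2 at 1.31.

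The rises were few and, besides AI506816, under 2-fold. AI506816 (ENSMUSG00000105987, chr5:23698296-23712667, minus strand, 4 exons) had 11.0, 7.52 and 7.36 normalised CPM in DKO, against 1.78, 1.97 and 1.86 in SKO, a 4.61-fold difference with DKO replicate 1 highest (log2 fold change 2.20 ± 0.21 SE, edgeR adjusted p = 0.000146). A call of at least 2-fold higher was made for 4.10% of all genes tested and for this 1 gene of the 200. AI506816 is among the 200 only through its level in DKO, so the count is not read against that share. Pvt1, 4933431E20Rik and Gm13657 are also among the 200 only through their level in DKO. Pvt1, the neighbour of Myc, had 4.16, 3.66 and 5.13 normalised CPM in DKO, against 2.41, 2.08 and 2.20 in SKO, with no overlap (log2 fold change 0.95, edgeR adjusted p = 0.00989). 4933431E20Rik, which overlaps the glutathione transferase gene Gstm5 and shares exon bases with it, had 5.29, 4.30 and 4.61 normalised CPM in DKO and 2.80, 2.36 and 2.48 in SKO (log2 fold change 0.90), where Gstm5 was not called (0.35).

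Both Hand2os1 and Hand2, a transcription factor gene of mesenchymal cells, were called higher. They overlap on opposite strands and share 461 exon bases. Whether they share reads was not tested, as strand use in counting is not stated. Hand2os1 had 11.2, 9.76 and 11.9 normalised CPM in DKO, against 7.88, 6.63 and 7.94 in SKO (log2 fold change 0.55, edgeR adjusted p = 0.0156, 0.0643 without DKO replicate 3 and 0.0705 without SKO replicate 2). Hand2 had 9.61, 7.37 and 9.18 normalised CPM in DKO, against 3.49, 5.32 and 6.14 in SKO (log2 fold change 0.80). The groups did not overlap in either gene, and the sums of stellate cell markers given above moved the same way. Gm13657 (0.70) was also higher and kept its call in 1 of the 6 fits without a library, the one without DKO replicate 2. Ifi30 (0.50), which encodes a lysosomal thiol reductase and is protein-coding in RefSeq, had 34.5, 26.2 and 29.7 normalised CPM in DKO and 21.9, 20.9 and 21.2 in SKO, and the sums of Kupffer cell and monocyte markers moved the same way.

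Host genes carry in their introns snoRNAs, which guide chemical modification of ribosomal RNA. Of 13 listed hosts among the 200 edgeR called 1 higher, 2410006H16Rik, and 0 lower, with a median log2 fold change of 0.16. Of all genes tested, 10.3% were called higher. By annotated position, 14 of the 200 hold a snoRNA. AI506816, called higher (2.20, its snoRNA is named Mir3096), and Cct6a (0.00, not called) are among these but not in the list. The listed Snhg20 holds a small Cajal body RNA and a microRNA and no gene typed as snoRNA. Among the 13, 6 had an unadjusted p under 0.05, with 0 of these lower. The share of all genes under that unadjusted p was not worked out, so this count is not read as a result about the hosts. DESeq2 called 2 and limma-voom 1. 2410006H16Rik (ENSMUSG00000086841, chr11:62602877-62604807, plus strand) had 20.5, 17.3 and 18.1 normalised CPM in DKO, against 14.1, 13.1 and 11.9 in SKO, without overlap (log2 fold change 0.52 ± 0.11 SE, edgeR adjusted p = 0.00847). Its introns hold 3 snoRNAs of 72 bases each, read from GRCm38 at the GENCODE M21 positions, at chr11:62603079-62603150, chr11:62603450-62603521 and chr11:62604515-62604586 on the plus strand. They are shown with box C (TGATGA) and box D (CTGA), the motifs that bind the core proteins, in capitals, and Snord49a and Snord49b share a run of 13 bases, aggaagtgccgtc.
Snord49b: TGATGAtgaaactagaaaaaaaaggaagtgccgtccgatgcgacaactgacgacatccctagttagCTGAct
Snord49a: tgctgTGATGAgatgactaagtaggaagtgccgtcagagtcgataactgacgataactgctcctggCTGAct
Snord65: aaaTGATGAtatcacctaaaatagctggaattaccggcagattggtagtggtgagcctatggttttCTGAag

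The other listed hosts, Rian excepted, gave values close together. Gas5, which holds 10 annotated snoRNAs, had 73.9, 72.1 and 75.2 normalised CPM in DKO, against 62.8, 69.6 and 60.1 in SKO, with each DKO library above each SKO library (log2 fold change 0.20 ± 0.07 SE, edgeR adjusted p = 0.081). Zfas1 (0.20), 1110038B12Rik (0.24) and Snhg17 (0.29) likewise did not overlap and did not pass the test. Snhg8 (0.01), Snhg12 (0.01), Snhg6 (0.05), Snhg20 (0.06), Snhg5 (0.16) and Snhg1 (-0.13) overlapped between genotypes, and Epb41l4aos (-0.25) did not overlap and was not called. The summed level of the listed hosts other than Rian was 214, 205 and 209 normalised CPM in DKO, against 180.4, 200.2 and 179.8 in SKO. Of 9 genes of snoRNP proteins tested 3 were higher, Nhp2 (0.50), Nop58 (0.46) and Gar1 (0.53), against 10.3% of all genes tested. Gar1 kept the call in 1 of the 6 fits without a library (edgeR adjusted p = 0.0482 to 0.0849) and Nop58 in 4, and DESeq2 called 2 of the 9. Snhg1 and Slc3a2, the heavy chain of several amino acid transporters, have starts 106 bases apart on opposite strands. Slc3a2 had 140.1, 108 and 113 normalised CPM in DKO, against 48.5, 49.4 and 47.9 in SKO (log2 fold change 1.31, edgeR adjusted p = 4.06e-05), while Snhg1 had 11.6, 13 and 12.5 in DKO and 11.8, 17 and 11.7 in SKO. The ratio of the pair did not overlap between genotypes (two-sided exact permutation test, p = 0.1, the smallest possible).

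The host RNAs of Gas5 and several Snhg genes are known substrates of nonsense-mediated decay. Of 12 genes of that pathway 1 was called, Upf2, with 22.5, 23.3 and 22.8 normalised CPM in DKO and 28.9, 26.7 and 26.7 in SKO (log2 fold change -0.26, edgeR adjusted p = 0.041). Upf2 lost the call without any 1 of the libraries (edgeR adjusted p = 0.067 to 0.109). Of 15 genes of nuclear RNA decay 1 was lower, Zcchc8 (-0.26), which also lost the call without any 1 library (edgeR adjusted p = 0.052 to 0.132). DESeq2 called 0 genes of both lists, and neither count stands out from the 9.70% of all genes called lower. Gm26917, an RNA related in sequence to ribosomal RNA and therefore uncertain in its counts, had 56.4, 38.9 and 45.5 normalised CPM in DKO and 36.1, 22.2 and 31.1 in SKO (log2 fold change 0.66, edgeR adjusted p = 0.0642).

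**Figure D5:**
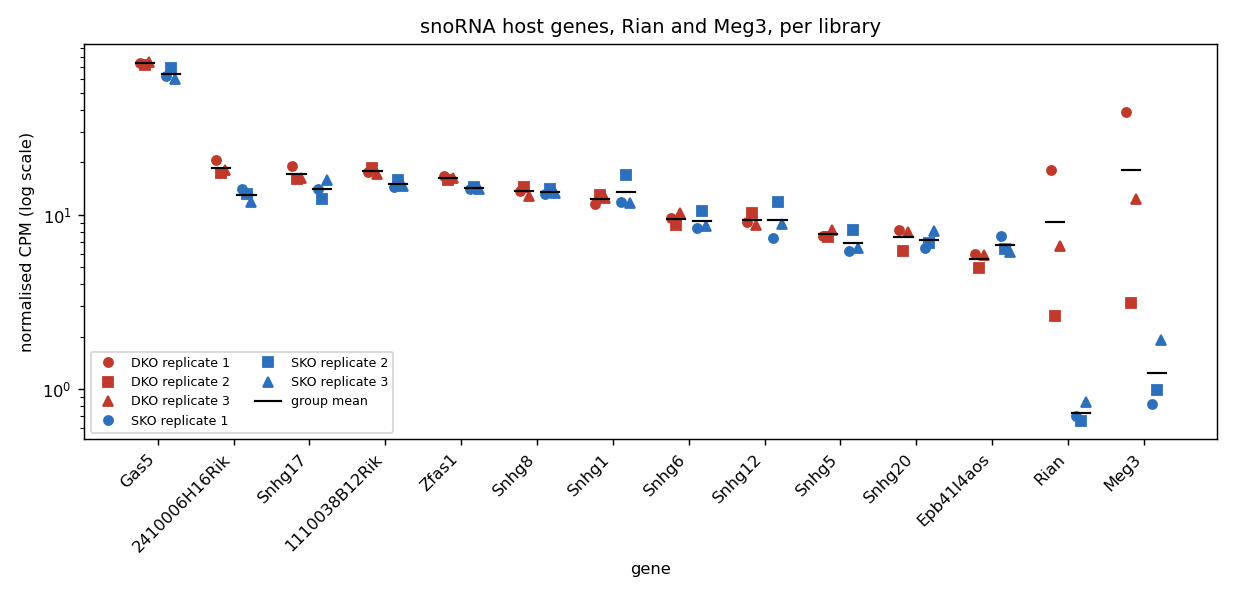
Normalised CPM (log scale) of 12 listed snoRNA host genes, Rian and Meg3, with DKO libraries in red left of SKO libraries in blue and lines at the group means. The ranges of DKO and SKO lie close together for the 12 hosts, and Rian and Meg3 are higher in all 3 DKO libraries with DKO replicate 1 on top.

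Meg3 and Rian, maternally expressed RNAs of the imprinted Dlk1-Dio3 region on chromosome 12, had the highest fold changes of the 200 and did not pass the test. Both are among the 200 only through their level in DKO, so their place in this order and their lack of overlap are descriptions. Meg3 (ENSMUSG00000021268) had 38.9, 3.12 and 12.4 normalised CPM in DKO, against 0.826, 0.987 and 1.91 in SKO (log2 fold change 3.86 ± 1.23 SE, edgeR adjusted p = 0.105). Rian (ENSMUSG00000097451), with 32213 bases between it and Meg3, had 18, 2.64 and 6.64 normalised CPM in DKO, against 0.699, 0.658 and 0.844 in SKO (log2 fold change 3.63 ± 0.91 SE, edgeR adjusted p = 0.0506). In both genes every DKO library was above every SKO library, and the DKO libraries differed among themselves in the same order. DKO replicate 1 also had the highest sums of the marker lists other than the hepatocyte and endothelial ones. Without it, the log2 fold change was 2.62 for Meg3 (edgeR adjusted p = 0.121) and 2.64 for Rian (edgeR adjusted p = 0.00481). Without DKO replicate 2 both passed, at 4.36 for Meg3 (edgeR adjusted p = 0.0339) and 4.06 for Rian (edgeR adjusted p = 0.00483). Neither passed without DKO replicate 3 or without any 1 SKO library. DESeq2 called both with all libraries (adjusted p = 0.00129 for Meg3 and 0.000116 for Rian), and limma-voom called neither. Rian, but not Meg3, also passed with library totals (edgeR adjusted p = 0.0297) and with upper-quartile factors (edgeR adjusted p = 0.0456). With no filter or with DESeq2 size factors in edgeR neither passed. The ratio of Meg3 to Rian was 2.16, 1.18 and 1.87 in DKO and 1.18, 1.5 and 2.26 in SKO, with overlap (two-sided exact permutation test, p = 0.9).

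Among the 200, 8 genes hold 15 annotated microRNA hairpins. The libraries measured the host RNAs and not the mature microRNAs. Mature forms, from RefSeq on GRCm38.p6, are shown for a selection, 1 arm each, in hosts described here, with the seed (bases 2 to 8) in capitals. Other arms and other microRNAs of Rian, Meg3 and Snhg20 are not printed. Those shown fall into a let-7 group with the seed GAGGUAG, a miR-15/16 group with the seed AGCAGCA, and 3 with a seed of their own.
mmu-let-7a-5p: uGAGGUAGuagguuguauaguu
mmu-let-7d-5p: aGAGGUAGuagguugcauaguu
mmu-let-7f-5p: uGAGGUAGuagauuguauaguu
mmu-miR-15a-5p: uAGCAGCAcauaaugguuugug
mmu-miR-16-5p: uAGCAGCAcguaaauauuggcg
mmu-miR-22-3p: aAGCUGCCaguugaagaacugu
mmu-miR-370-3p: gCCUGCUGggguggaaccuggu
mmu-miR-770-5p: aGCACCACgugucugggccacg

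Of these microRNAs, miR-370 lies in Rian and miR-770 in Meg3, which are described above. Mir22hg, host of miR-22, had 44.7, 39.7 and 38.6 normalised CPM in DKO, against 45.4, 61.8 and 47.4 in SKO, every DKO library being below every SKO library by a small margin (log2 fold change -0.33 ± 0.12 SE, edgeR adjusted p = 0.081). Dleu2, host of miR-15a and miR-16-1, had 15.1, 12.3 and 12.3 normalised CPM in DKO and 12.7, 10.4 and 11.4 in SKO, with overlap (log2 fold change 0.21). 6720427I07Rik, which holds the let-7 cluster and is named for it after its values were seen, averaged 3.36 ± 0.506 normalised CPM in DKO and 3.44 ± 0.143 in SKO (SD, n = 3 each), and its log2 fold change was -0.03. Of 10 microRNA processing genes 1 was called, Tnrc6b, which encodes a partner of Argonaute proteins (log2 fold change -0.27, edgeR adjusted p = 0.0434), a share near the 9.70% of all genes called lower. Tnrc6b kept the call in 1 of the 6 fits without a library (edgeR adjusted p = 0.0256 to 0.131), and DESeq2 called 0 of the 10.

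Most of the 200 varied little between libraries of 1 genotype, with a median coefficient of variation of 12.6% in DKO and 14% in SKO. An SD over 50% of the mean was found for 8 genes in DKO and 6 in SKO, and 3 of these genes are named for it after their values were seen. Gm43305 had 26.2, 0.0488 and 64.0 normalised CPM in DKO and 39.8, 22.2 and 7.49 in SKO, so that DKO replicate 2 had 1 count where the other libraries had 133 to 1235. Gm30918 had 4.78, 4.59 and 4.67 normalised CPM in DKO, and 0.508, 0.493 and 6.30 in SKO, with SKO replicate 3 apart from the other two. Gm42047 had 44.7, 44.0 and 45.9 normalised CPM in DKO, and 36.2, 8.11 and 35.1 in SKO, with SKO replicate 2 apart. None of the 3 was called by edgeR (adjusted p = 0.886 for Gm43305, 0.56 for Gm30918 and 0.419 for Gm42047), and their unadjusted p-values were 0.808, 0.379 and 0.242 in that order.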

How the data were processed

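Liver RNA, extracted with Trizol per the labels' protocols, gave 6 libraries. For each of them the authors deposited read counts per Ensembl gene. Tools named in the submitters' processing notes are STAR, HTSeq 0.6.1p1, cutadapt 1.13 and DESeq2, with build mm10. Roles, settings, the annotation release and strand use are not stated there.

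Groups came from the genotype labels, and replicate numbers, in accession order, only name libraries. Types, positions and symbols came from GENCODE M21, which matched 54165 of 54232 identifiers. Counts were tested with edgeR 4.0.16 (R 4.3.3), DKO against SKO, with TMM factors, filterByExpr and robust quasi-likelihood fits over 13986 genes. A gene was called at a Benjamini-Hochberg adjusted p under 0.05. The procedure was tested on simulated counts. Alternatives were DESeq2 1.42.0, limma-voom (limma 3.58.1), other scalings, no filter, other rankings and leaving out each library.

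The genes and the lists were chosen with earlier results of these data known. A rule named 52 genes: the 10 most abundant, the called genes with the 12 largest changes in each direction, members of the lists, the genes at the limit, and up to 8 with a called coding neighbour. Further genes named were chosen after their values were seen. RefSeq sequences came from GRCm38.p6. Genes on X and Y were left out, and 1 called gene with its coding neighbour is not reported here by name.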

Additional observations from a re-analysis of the deposited data

How the results depend on the processing

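Scaling, the number of genes kept and single libraries moved the counts of calls. With library totals only, 25 of the 200 were higher and 20 lower, and the median log2 fold change was 0.08, where that of all genes tested was 0.23. Higher calls were 11 with no filter and 11 with upper-quartile factors. Ranking by counts per kilobase gave a median of -0.26. Keeping 100 genes gave 3 higher and 23 lower, and keeping 300 gave 14 higher and 45 lower. Leaving out 1 library gave 5 to 11 higher and 24 to 42 lower calls. The cause of these shifts between libraries was not tested. The difference in the share of counts was -0.0383 as a sum of normalised CPM in percent, a scaling added after seeing the data, as were the fits without the 9 RefSeq coding genes (6 higher, 40 lower) and without genes that share exon bases with a coding gene (5 higher, 27 lower).

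Single genes whose sign turned were not called in any direction by the main test. Cct6a was -0.01 with DESeq2, -0.00 with its size factors in edgeR and -0.03 to 0.05 without a library. Snhg8 was -0.00 and Snhg12 -0.00 with DESeq2. With library totals 1700020I14Rik was 0.02, Tug1 0.14, 2900097C17Rik 0.09 and Snhg1 0.10. Without a library AW112010 ranged from -0.02 to 0.21, Snhg8 from -0.03 to 0.05, Snhg1 from -0.22 to 0.07, Snhg6 from -0.01 to 0.15, Snhg12 from -0.13 to 0.21 and Snhg20 from -0.02 to 0.17; the cause was not tested. Of the other values of named genes, 524 kept their direction and side of the threshold, 43 lost a call and 34 gained one.

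No paired analysis was possible because the labels give no replicate numbers that tie a DKO library to a SKO library. The 3 libraries per genotype limit the precision, and genes near the limit of 3.33 CPM rest on few counts.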

Other observations

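Below the 200 most abundant genes, 20 long non-coding RNA genes were higher and 22 lower in DKO among 531 tested (edgeR, Benjamini-Hochberg adjusted p under 0.05). Gm19619, just outside the limit, had 5.75, 4.0 and 5.96 normalised CPM in DKO, against 0.826, 1.48 and 0.732 in SKO (log2 fold change 2.35, edgeR adjusted p = 0.000658). Dnm3os, a host of microRNAs of mesenchymal cells, had 1.30, 1.27 and 1.09 normalised CPM in DKO and 0.699, 0.439 and 0.676 in SKO (log2 fold change 1.02, edgeR adjusted p = 0.0404). It lost the call without any 1 library (edgeR adjusted p = 0.0651 to 0.157), and the sums of stellate cell markers moved the same way, a part that was not tested. Junos, which starts beside Jun, had 1.09, 1.22 and 1.19 normalised CPM in DKO and 0.508, 0.493 and 0.394 in SKO (log2 fold change 1.32, edgeR adjusted p = 0.0139), and kept its call in 4 of the 6 fits without a library (edgeR adjusted p = 0.0243 to 0.0573). Gm34654 had 4, 5 and 6 counts in DKO and 51, 48 and 20 in SKO (log2 fold change -3.26, edgeR adjusted p = 0.00168), and Gm12718 had 1, 0 and 0 counts in DKO and 9, 20 and 10 in SKO. These genes were chosen after their values were seen.

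Imprinted RNAs outside the 200 were low. Mirg, which lies downstream of Rian in the same imprinted region, had 38, 1 and 10 counts in DKO and 0, 0 and 0 in SKO, where a count of 0 allows up to 3 counts per library, and DKO replicate 1 was again the highest. It was not tested because of the filter on low counts. Airn had 3.53, 1.37 and 2.23 normalised CPM in DKO and 0.826, 0.439 and 1.58 in SKO, with overlap (log2 fold change 1.33, edgeR adjusted p = 0.0832). Kcnq1ot1 had 1.85, 1.46 and 2.07 normalised CPM in DKO and 2.54, 1.43 and 1.63 in SKO (log2 fold change -0.05). H19 had 20, 5 and 3 counts in DKO and 4, 2 and 6 in SKO and was not tested.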
